A study of Danio rerio with 6 samples.

Results

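The 300 genes with the highest signal in untreated zebrafish larvae at 10 days post fertilization (dpf) are described here. They were chosen by their mean log2 signal over the 3 control arrays, out of 19260 genes that had a transcript cluster with a single gene symbol, and the cluster with the highest mean stood for each gene. The study used 6 arrays in all, and the other 3, from larvae given 5 mM metronidazole in 0.2% DMSO over 5 days, starting at 5 dpf, entered no result. Every larva carried Tg(mbp:nfsB-egfp), a transgene that makes bacterial nitroreductase and GFP under the promoter of the myelin basic protein gene, so the control larvae had the transgene too and were kept in medium with 0.2% DMSO. Each array held RNA of whole larvae, 5 pooled for an array, and the control arrays came from separate batches of larvae. The SD between the arrays (n = 3) therefore covers differences between batches and pools, and not between single larvae. The hour of the day at which the larvae were collected, and whether they were fed, were not given in the sources used here.

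A larva of this age swims, hunts and digests, and lives from food rather than from yolk. Its body mass is mostly trunk muscle, and its gut is served by a liver and a pancreas whose acinar cells make digestive enzymes in bulk. In any cell a large part of the messenger RNA codes for ribosomal proteins, translation factors and the enzymes of energy supply, and the mitochondrial genome is transcribed in many copies. A ranking of whole-larva RNA mixes these sources, and in such bulk samples fewer cells of a type and less RNA per cell cannot be told apart. The values are signals of array probes on a log2 scale, where a step of 1 is a 2-fold difference in signal. How strongly a probe set binds its target also sets its signal, so the order of the genes is an order of signals and not of RNA amounts, and differences are read below between arrays within a gene.

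The array called control 1 stood apart from the others. Over the 300 genes its values correlated with those of control 2 at r = 0.764 and with those of control 3 at r = 0.700, whereas controls 2 and 3 correlated at r = 0.945. The members cover a narrow range of high signals, and over all 19260 genes the same pairs correlated at r = 0.961, 0.941 and 0.978. These correlations run across genes of arrays that share their probes, and they are given as a description. The median size of the difference between 2 arrays was 0.262 for controls 1 and 2, 0.312 for controls 1 and 3 and 0.140 for controls 2 and 3. Over all genes these medians were 0.246, 0.295 and 0.181, a smaller gap between the pairs. The arrays' medians over all transcript clusters were close, between 5.096 and 5.124. Control 1 gave the highest of the 3 values for 164 of the 300 genes, or 54.7%, against 43.2% of all genes, and the lowest for 100, or 33.3%, against 35.9% of all genes. Control 3 gave the lowest value for 114 of the 300, or 38.0%, against 36.5% of all genes. Control 2 gave the lowest for 86 of the 300, or 28.7%. Of all 19260 genes, control 1 was lowest for 6907, control 3 for 7026 and control 2 for the rest. An SD over 0.5 was found for 32 of the 300, or 10.7%, against 10.1% of all genes, so the share was near that of genes in general.

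The means of the 300 genes ran between 13.74 and 10.34, with a median of 10.97, whereas the median of the other 18960 genes was 6.73. The upper end was sparse, with 9 genes at or above 13 and 48 at or above 12, and 153 of the 300 lay below 11. The lower end was crowded. Place 300, slc25a3b, a mitochondrial phosphate carrier, had a mean of 10.34, and place 301, ube2ql1, was lower by only 0.005. Just inside stood txna, cpe, pfn2b and si:ch211-137a8.4, all with means of 10.34, and just outside abcg2a, si:ch211-251b21.1, rps27.1 and pde6c, all with means of 10.33. A further 40 genes lay within 0.1 below place 300 and 31 members within 0.1 above it. On each of the 3 arrays taken alone, 217 of the 300 genes were again among the highest 300, while 96 genes outside the list entered it on at least 1 array. The 300 genes highest on control 1, on control 2 and on control 3 alone held 260, 267 and 261 members of the list. RefSeq annotates 297 of the 300 as protein-coding, 2 as long noncoding RNA and 1 as ribosomal RNA.

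By their names, 244 of the 300 genes fell into 25 groups of related function, and 56 fell into none. The largest groups were 41 cytoplasmic ribosomal proteins, 26 muscle genes, 18 translation factors, 15 digestive enzymes of the pancreas and 13 genes of the respiratory chain and mitochondrial transport. Among genes measured on the array, members were 7 of 8 mitochondrial genes, 15 of 23 pancreatic enzymes and 41 of 72 ribosomal proteins. Of collagen and matrix genes 1 of 66 was a member, of hormone genes 0 of 32 and of myelin and oligodendrocyte genes 0 of 7. Over all genes 300 of 19260 were members, and this share stands beside the group counts here and below. Against it, the low counts do not set these groups apart from genes in general.

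**Figure D1:**
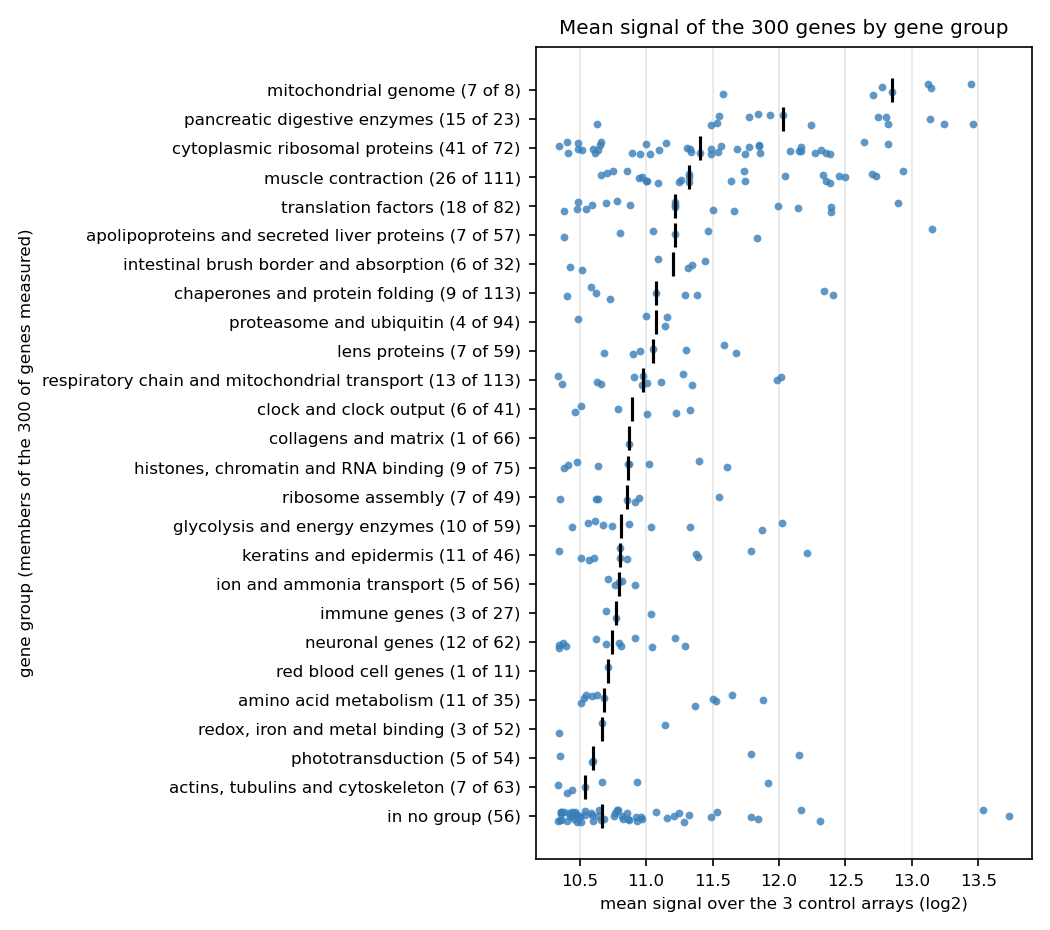
Mean log2 signal over the 3 control arrays (x axis) of each of the 300 genes, 1 point a gene, by gene group, with the members and the measured genes of each group in brackets and a black bar at the median of the members. The 7 mitochondrial genes and the pancreatic enzymes have the highest medians, and the 56 genes in no group lie mostly below 11 but include the 2 highest genes of all.

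The first places were held by a few genes with very even signals. The highest of them, zgc:158463, which RefSeq lists as a ribosomal RNA, gave 13.74, 13.73 and 13.74 in controls 1, 2 and 3 (SD 0.0080). Place 2 was vangl2, which acts in planar cell polarity, with 13.52, 13.55 and 13.55. Its other transcript cluster averaged 7.29, so this place rests on 1 of 2 clusters that disagreed by 6.25 on the log2 scale. Of the next 18 genes, 6 code for pancreatic enzymes and 6 lie in the mitochondrial genome. The rest were fetub, the muscle genes mylz3, ckma and pvalb2, the elongation factor eef2b and the ribosomal protein gene rpl7. Over the first 20 genes the median SD was 0.084, and none had an SD over 0.5.

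**Figure D2:**
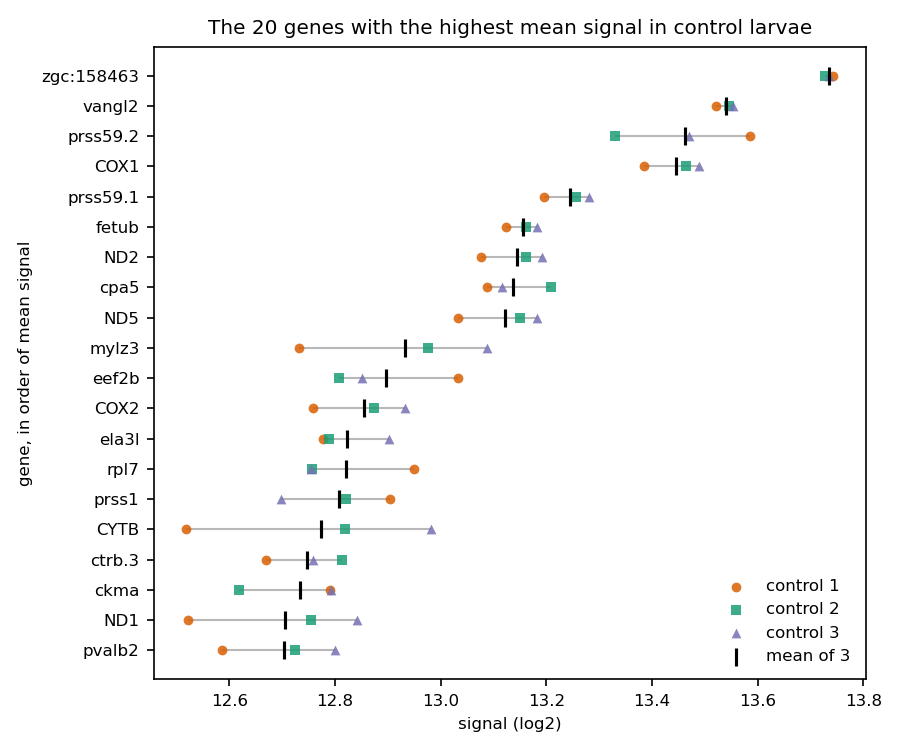
Log2 signal (x axis) of the 20 genes with the highest mean on each of the 3 control arrays (coloured symbols), with the mean of the 3 as a black bar. The arrays nearly coincide for the 2 highest genes and lie farthest apart for CYTB, with 12.52, 12.82 and 12.98 in controls 1, 2 and 3.

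The mitochondrial genome codes for subunits of the respiratory chain, and 7 of its 8 genes measured alone were members. COX1, a catalytic subunit of cytochrome c oxidase, gave 13.38, 13.46 and 13.49 in controls 1, 2 and 3. ND2 and ND5, subunits of complex I, averaged 13.14 and 13.12, and COX2 averaged 12.85. CYTB, of complex III, had the largest SD of the group, with 12.52, 12.82 and 12.98. ND1 and ND3 completed the group at means of 12.71 and 11.58. All 7 were lowest in control 1 and highest in control 3, and ND6, which stood at place 603, ran the same way. Control 1 was lowest for 35.9% of all genes, and control 3 was highest for 29.0% of the 300. The group of mitochondrial genes was made after values were seen. The members are cut from shared precursor transcripts, so they are not independent of each other. The differences were small, with a median of -0.13 for control 1 minus the mean of the other arrays.

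Enzymes that the exocrine pancreas secretes into the gut made up 15 of the 300 genes and were among the most even of them. The trypsin-type proteases prss59.2 and prss59.1 stood at places 3 and 5, with 13.59, 13.33 and 13.47 for prss59.2 and 13.20, 13.26 and 13.28 for prss59.1. These genes lie next to each other in RefSeq's gene order, and probes may read transcripts of both. The carboxypeptidase gene cpa5 gave 13.09, 13.21 and 13.12. Elastase (ela3l, mean 12.82), trypsin (prss1, 12.81), chymotrypsin (ctrb.3, 12.75) and carboxypeptidase B (cpb1, 12.25) followed. Lipase and starch digestion were present through cel.1, a bile salt-dependent lipase, at 12.03, and the amylase gene amy2a at 11.93. The median SD of the group was 0.09. Its 2 members with an SD over 0.5 were ela2l, with 10.94, 11.88 and 11.77 in controls 1, 2 and 3, and cpa1, with 10.03, 10.70 and 11.15. Both were lowest in control 1, whereas their neighbours in the genome, ela2 and cpa5, were nearly flat, with 11.83, 11.82 and 11.88 for ela2. Over the whole group control 1 was highest for 5 genes and lowest for 7, against 43.2% and 35.9% of all genes.

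Genes of the protein-making machinery were the largest set. Of the 41 cytoplasmic ribosomal proteins, rpl7 was highest, with 12.95, 12.76 and 12.75 in controls 1, 2 and 3. It was followed by rpl6 (mean 12.64), rps3 (12.38), rpl13 (12.35) and rplp1 (12.31), and the lowest member was rps7 at 10.34. Their signals were even, with a median SD of 0.16 and a highest of 0.28, for rpl31. Control 1 was highest for 39 of the 41, against 43.2% of all genes, while the lowest array was control 3 for 30 and control 2 for 10. Over the 300 genes control 3 was lowest for 38.0% and control 2 for 28.7%. Of the 31 ribosomal protein genes outside the list, control 1 was highest for 25. The median difference of control 1 from the mean of the others was 0.25.

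The 18 translation factors were also mostly highest in control 1, but control 2 was lowest for 11 of them and control 3 for 6. Over the 300 genes control 2 was lowest for 28.7% and control 3 for 38.0%. The elongation factor genes eef2b and eef1g gave 13.03, 12.81 and 12.85 for eef2b and 12.24, 12.08 and 12.11 for eef1g. The subunit gene of initiation factor 3 eif3k gave 12.77, 12.09 and 12.31, and rack1, a protein of the small ribosomal subunit, averaged 12.39. The poly(A)-binding protein gene pabpc1a was nearly flat, with 11.99, 11.98 and 12.01. The largest SD of the group, 0.41, belonged to eef1da. Control 1 was highest for 16 of the 18, and the median difference from the other arrays was 0.41. Of the 64 translation factors outside the list it was highest for 32 and lowest for 17, closer to the 43.2% and 35.9% of all genes. Among those 64, control 2 was lowest for 22 and control 3 for 25. The 7 genes of ribosome assembly, a group made after values were seen, differed more. The assembly factor nsa2 gave 12.08, 11.31 and 11.26 in controls 1, 2 and 3, rsl24d1 gave 11.46, 10.69 and 10.69, and rsl1d1, with the largest SD of the group, gave 11.31, 10.36 and 10.19. The GTP-binding assembly factor gtpbp4 also passed an SD of 0.5, at 11.50, 10.57 and 10.49. Control 1 was highest for 6 of these 7 genes, all but nop10, and for 30 of the 42 assembly genes outside the list. Over all genes its share was 43.2%. The median difference of control 1 was 0.77.

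Muscle genes held 26 places, of 111 measured. The highest was mylz3, a myosin light chain of fast muscle, with 12.73, 12.98 and 13.09 in controls 1, 2 and 3. The muscle creatine kinase ckma gave 12.79, 12.62 and 12.79, and the calcium-binding parvalbumin pvalb2 gave 12.59, 12.72 and 12.80. Next came the regulatory light chain mylpfa (mean 12.50) and the calcium pump of the sarcoplasmic reticulum, atp2a1l (12.45), followed by the myosin heavy chain myhz1.1, actc1b and the troponin C gene tnnc2.2. The giant proteins of the sarcomere stood lower, with neb at 10.95 and ttn.1 at 10.66. The gene ldb3b, whose protein lies at the Z-disc, had the smallest SD of all 300 genes, with 10.74, 10.75 and 10.76. At the other end, acta1b, a skeletal muscle actin, gave 9.08, 12.04 and 11.88, so that its value in control 1 was far below the others and its place on that array alone was 1335. Its second transcript cluster averaged 5.37. The other members with an SD over 0.5 were myl1, with 10.50, 11.66 and 11.82, tnnt3b, with 11.09, 11.99 and 12.14, and tnni2a.4, with 10.08, 10.92 and 11.12. Control 1 was lowest for 21 of the 26, against 35.9% of all genes, and for 62 of the 85 muscle genes outside the list. The 3 members highest in control 1 were atp2a1l, ampd1, which deaminates AMP, and mibp2.

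Among members of the list, genes of energy supply outside the mitochondrial genome showed no common order of the arrays. The nuclear-coded cytochrome oxidase subunit cox4i1 gave 11.98, 12.04 and 12.03, and ucp1, a carrier of the inner mitochondrial membrane, gave 12.10, 11.91 and 11.95. The outer membrane channels vdac2 and vdac1 averaged 11.34 and 10.66. Of the 13 members of this group control 1 was highest for 7 and lowest for 6, although it was lowest for 71 of the 100 such genes outside the list. The largest SD, 0.37, belonged to ndufa4a, of the respiratory chain. Among the glycolytic and energy enzymes, gapdh, often used as a reference gene, stood at place 54 with 11.91, 11.78 and 11.91. The creatine synthesis gene gamt averaged 12.02 and idh2, of the citric acid cycle, 11.33. The largest SD of these 10 genes was that of gapdhs, with 10.52, 11.27 and 11.32, followed by ckbb, the brain-type creatine kinase, at 10.13, 10.82 and 10.89. Both were lowest in control 1. Over the 10 genes control 1 was highest for 4 and lowest for 3. It was lowest for 33 of the 49 such genes outside the list, and for 35.9% of all genes.

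Enzymes and regulators of amino acid and polyamine metabolism held 11 places of 35 measured. Tyrosine breakdown was present through hpda, with 12.10, 11.85 and 11.70 in controls 1, 2 and 3, and tat, with 11.65, 11.38 and 11.47. The methyl transferase gene bhmt, which makes methionine from homocysteine, averaged 11.65, and the threonine dehydrogenase gene tdh averaged 11.53. The glutamate enzymes glud1b and glula were even, at 11.45, 11.29 and 11.36 for glud1b and 10.53, 10.52 and 10.56 for glula. The largest SD of the group was 0.33, for oaz1a, an inhibitor of polyamine synthesis that was lowest in control 1. The other members lay mostly the opposite way, with control 1 highest for 7 of the 11, against 43.2% of all genes. Of the 24 genes of this group outside the list, control 1 was highest for 9 and lowest for 10. The group was made after values were seen.

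Proteins of the eye formed a lens group and a photoreceptor group that differed in how the arrays lay. The lens crystallin genes crygn2, cryba4 and crybb1 gave 11.95, 11.62 and 11.45, then 11.87, 11.32 and 11.57, then 11.56, 10.93 and 11.41 in controls 1, 2 and 3. The genes cryba4 and crybb1 lie side by side in RefSeq's gene order. Crystallins crygmx and crygm2b followed at 11.05 and 10.96, and crybgx had the largest SD of the group, with 11.23, 10.09 and 10.73. Control 1 was highest for 5 of the 7 and lowest for none, and control 2 was lowest for 6, against 28.7% of the 300. Of the 52 lens genes outside the list, control 1 was highest for 26 and lowest for 15, nearer to the 43.2% and 35.9% of all genes. Among those 52, control 2 was again the array most often lowest, for 24, with control 3 lowest for 13. The 5 genes of phototransduction, the cascade that turns light into a nerve signal, were the least even group among those with 5 members or more, with a median SD of 0.75. The phosphodiesterase subunit pde6ha gave 11.34, 12.31 and 12.81, while its paralog pde6hb had the opposite order, with control 1 highest, 11.90 in control 2 and 11.48 in control 3. The ultraviolet opsin gene opn1sw1 gave 9.25, 11.28 and 11.27, and the cone transducin gene gnat2 gave 9.70, 11.17 and 10.90. The G protein subunit gene gnb1b gave 10.10, 10.40 and 10.57. Its paralog gnb1a, counted with the neuronal genes, gave 11.26, 11.21 and 11.19 and was highest in control 1, so where these paralogs are placed moves the counts of both groups by 1. Control 1 was lowest for 4 of these 5, and for 39 of the 49 phototransduction genes outside the list, against 35.9% of all genes.

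Proteins secreted by the liver were led by fetub, a protease inhibitor of the blood, at place 6 with 13.12, 13.16 and 13.18. The apolipoproteins, which carry lipids in plasma, were less even. The gene apobb.1 gave 11.21, 12.05 and 12.25 in controls 1, 2 and 3, apoc2 gave 10.89, 11.50 and 12.01, and apoa1a gave 10.69, 11.52 and 11.43. The retinol carrier rbp4 averaged 10.81 and apoeb 11.05. Control 1 was lowest for 6 of the 7 genes, all but igfbp1a, a binding protein of insulin-like growth factors, which gave 10.72, 10.16 and 10.27. Control 1 was also lowest for 33 of the 50 such genes outside the list, against 35.9% of all genes. The intestinal genes were led by cyp3a65, a cytochrome P450 of the gut and liver, with 11.39, 11.42 and 11.51, and plac8.1, with 11.08, 11.59 and 11.37. The peptidase gene anpepb.1 was, like both of these, lowest in control 1, at 10.98, 11.65 and 11.31, while the amino acid transporter slc6a19a.2, with 11.54, 11.14 and 10.58, and slc13a2, with 10.92, 10.54 and 10.09, were highest there.

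Keratins, the intermediate filaments of epithelia, and other epidermal genes held 11 places. The highest, krt4, gave 11.81, 12.59 and 12.24 in controls 1, 2 and 3, and krt5 gave 11.11, 12.04 and 12.23. The genes krt91 and cyt1l were flatter, at means of 11.39 and 11.38. So was krt8, the neighbour of krt5, with 10.91, 10.84 and 10.82. The widest of the group was aqp3a, a channel for water and glycerol, with 8.95, 10.96 and 11.62, which put it at place 1563 on control 1 and at place 75 on control 3. Control 1 was lowest for 6 of the 11, against 35.9% of all genes, and for 21 of the 35 such genes outside the list. Of the 5 genes of ion and ammonia transport, rhbg, an ammonia channel of gill and skin, had the largest SD, with 10.33, 11.39 and 11.03. The sodium pump subunits atp1b1a, atp1b1b and atp1b2a averaged 10.82, 10.79 and 10.76, and atp6v0ca, of the proton pump, 10.72. Control 1 was lowest for 4 of these 5 and for 35 of the 51 ion and ammonia transport genes outside the list. Its share of all genes was 35.9%, and this group was made after values were seen.

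Neuronal genes held 12 places, all below 11.3. They were led by the synuclein gene sncgb (mean 11.29), the G protein subunit gnb1a (11.22), the neuronal RNA-binding protein elavl3 (11.05) and the synaptic vesicle protein vamp2 (10.92). These were even, with a median SD of 0.12 over the group. The reticulon genes rtn3 and rtn1a were nearly flat, at 10.80, 10.83 and 10.81 for rtn3 and 10.65, 10.63 and 10.60 for rtn1a. The largest SD, 0.37, belonged to camk2n2a, an inhibitor of the kinase CaMKII. Control 1 was highest for 9 of the 12, whereas it was highest for 23 of the 50 neuronal genes outside the list, close to the share of all genes. None of the 7 myelin and oligodendrocyte genes measured alone was in the list, and plp1a, plp1b and mpz had no cluster with a single symbol. The genes of myelin basic protein, whose promoter drives the transgene, gave 8.69, 8.61 and 8.77 for mbpa, at place 1945, and 8.62, 8.71 and 8.71 for mbpb, at place 1976. The interleukin 7 receptor gene il7r, which the study followed, stood at place 13743 with 5.21, 5.59 and 6.43.

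Markers of the tissues of a whole larva stood in the ranking as follows. Of the markers measured alone, 6 of 7 for skeletal muscle, 5 of 5 for exocrine pancreas, 3 of 4 for lens, 3 of 5 for epidermis, 2 of 4 for photoreceptors, 1 of 4 for ionocytes and 1 of 4 for neurons were among the 300. None was for heart, islet, liver, intestine, notochord and skeleton, red blood cells, oligodendrocytes, white blood cells, pigment cells, pituitary, kidney or germ line. Over all genes 300 of 19260 were, so a lack of members among a few markers says little. The red blood cell markers hbaa1 and hbba1 had no cluster with a single symbol, while the globin gene hbae3, not a listed marker, was a member. The liver markers fabp10a and tfa were measured only in clusters that carry another symbol as well. These clusters, fabp10a with api5 and tfa with rps27.1, averaged 11.58 and 11.48, above the signal at place 300. A shared cluster does not tell which of its genes gave the signal. All measured markers of photoreceptors, liver, intestine, ionocytes, red blood cells and islet, 4, 4, 4, 4, 3 and 3 in number, were lowest in control 1, against 35.9% of all genes. So were both markers each of heart, macrophages, T cells and kidney, 6 of 7 of skeletal muscle, 4 of 5 of epidermis and 3 of 4 of notochord and skeleton. Other tissues showed no such lean, with 2 of 5 markers of exocrine pancreas, 2 of 5 of oligodendrocytes and 1 of 2 of neutrophils lowest there. The same held for pigment cells, with 1 of 4, and germ line, with 0 of 2. None of the 4 neuronal and none of the 4 lens markers was lowest in control 1, and all 3 pituitary markers were highest there. Of these 3, gh1 gave 7.64, 4.87 and 4.42 in controls 1, 2 and 3. The others had low signals and differed little, with 3.68, 3.54 and 3.53 for prl and 5.02, 4.94 and 4.90 for pomca. Some markers lowest in control 1 were low in signal too, such as hbba2, of red blood cells, with 2.64, 2.90 and 2.82. The order of the arrays says little for such genes. The part of the larvae's tissue make-up in these differences was not tested.

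Genes of folding, turnover and structure that all cells use differed in spread. The median SD was 0.14 for chromatin and RNA binding, 0.18 for the cytoskeleton and 0.20 for chaperones and folding. It was 0.29 for proteasome and ubiquitin and 0.40 for redox and iron genes, against 0.192 over the 300. The chaperone gene hspa8 gave 12.43, 12.39 and 12.40 in controls 1, 2 and 3, and hsp90ab1 gave 12.46, 12.24 and 12.33. The translocon gene sec61a1a averaged 11.39, and the largest SD of the 9 chaperone and folding genes was 0.30, for the chaperonin subunit cct2. The ubiquitin-conjugating enzyme gene ube2d2 was nearly flat, with 11.13, 11.14 and 11.16, whereas the ubiquitin gene ubb gave 10.78, 9.96 and 10.72 and was low in control 2. Among cytoskeletal genes tmsb4x, which binds actin monomers, averaged 11.92, and the tubulin gene tubb4b 10.93. The beta-actin gene actb2 stood at place 209 with 10.46, 10.86 and 10.67. Its paralog actb1 stood at place 1200 with 8.15, 9.44 and 9.69, and was lowest in control 1. Of the 9 genes of chromatin and RNA binding, the cold-inducible RNA-binding protein cirbpb averaged 11.61, the variant histone gene h3f3d 11.40 and ybx1 11.02, and the largest SD was 0.33, for hnrnpaba. The thioredoxin-like gene txnl1 had the largest SD of the 3 redox and iron genes, with 11.95, 10.90 and 10.59, while the ferritin chain fth1a averaged 10.67. The only matrix gene, fn1b, averaged 10.87. The cathepsin gene ctsf led the 3 immune genes at 11.04, and the widest of them was ctsf too, at an SD of 0.26.

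The only red blood cell gene was hbae3, an embryonic alpha globin, with 9.35, 11.74 and 11.05 in controls 1, 2 and 3. Control 1 lay lowest and control 2 highest, and 8 of the 10 other red blood cell genes were lowest in control 1 as well. Of the 56 genes in no group, control 1 was highest for 33 and lowest for 17, against 43.2% and 35.9% of all genes. Those of the 56 with the largest SDs were low in control 1. The prostaglandin D synthase gene ptgdsb.1 gave 9.85, 11.99 and 11.79. The gene msmo1, of cholesterol synthesis, gave 8.64, 11.21 and 11.21, so that on control 1 alone it fell to place 2184, the lowest place of any member on any array. The gene si:dkey-7c18.24 had the largest SD of all, with 9.02, 11.78 and 12.11. Some of the 33 that were highest in control 1 are named here after their values were seen. The gene lpin1a, which makes diacylglycerol, gave 11.71, 10.73 and 10.04, and the lipoprotein lipase gene lpla gave 11.80, 11.00 and 10.67. A regulator of growth signalling, sesn1, gave 12.04, 11.11 and 11.32.

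Genes of the circadian clock and its output, which run through a daily cycle in many tissues of the zebrafish, held 6 places of 41 measured. They were the PAR bZIP factors hlfa and dbpb, the repressor nr1d1, klf9, bhlhe40 and the period gene per3. This group was made after values were seen. The values for hlfa were 11.71, 11.46 and 10.83 in controls 1, 2 and 3, and nr1d1 gave 11.65, 11.37 and 10.65. The differences were larger for dbpb, with 11.88, 11.21 and 9.92, and largest for klf9, with 12.07, 10.88 and 9.41. These 4 genes had the same order of arrays, with control 1 highest and control 3 lowest. In contrast, bhlhe40 was flat at 10.52, 10.52 and 10.49, and per3 was highest in control 2, with 10.32, 10.78 and 10.30. Control 3 was lowest for all 6, against 36.5% of all genes, but for only 13 of the 35 clock genes outside the list, near that share. Some of these 13 had the order of the 4 genes above, such as nr1d4b, with 10.32, 7.99 and 5.79, and dbpa, with 9.51, 9.18 and 7.95. For 10 of the 35, control 3 was highest instead. Control 1 was highest for 4 of the 6 and for 15 of the 35 outside, and the count outside was close to the 43.2% of all genes. The median difference of control 3 from the mean of the others was -0.81 over the 6. The immediate early gene fosab, in no group, ran the other way, with 10.08, 11.08 and 12.07.

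Over the 300 genes the SD between the arrays had a median of 0.192, with quartiles of 0.113 and 0.321, and ran between 0.0078 and 1.70. The median over the other genes was 0.206. The 62 genes with an SD under 0.1 made up 20.7% of the 300, against 18.9% of the other genes. By place, the median SD was 0.084 for places 1 to 20, 0.176 for 21 to 100, 0.211 for 101 to 200 and 0.208 for 201 to 300, and it was 0.239 for places 301 to 600. The low SD of the first 20 was seen only there. Whether signals at the top of the scale were compressed was not tested. Of the 300 genes, 8 had an SD over 1. They were si:dkey-7c18.24, acta1b, msmo1, aqp3a, klf9, hbae3, ptgdsb.1 and opn1sw1, in falling order. The smallest SDs belonged to ldb3b, zgc:158463, ube2d2, pabpc1a, vangl2, rtn3, hspa8, bhlhe40, glula and rtn1a, all at or below 0.0261.

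**Figure D3:**
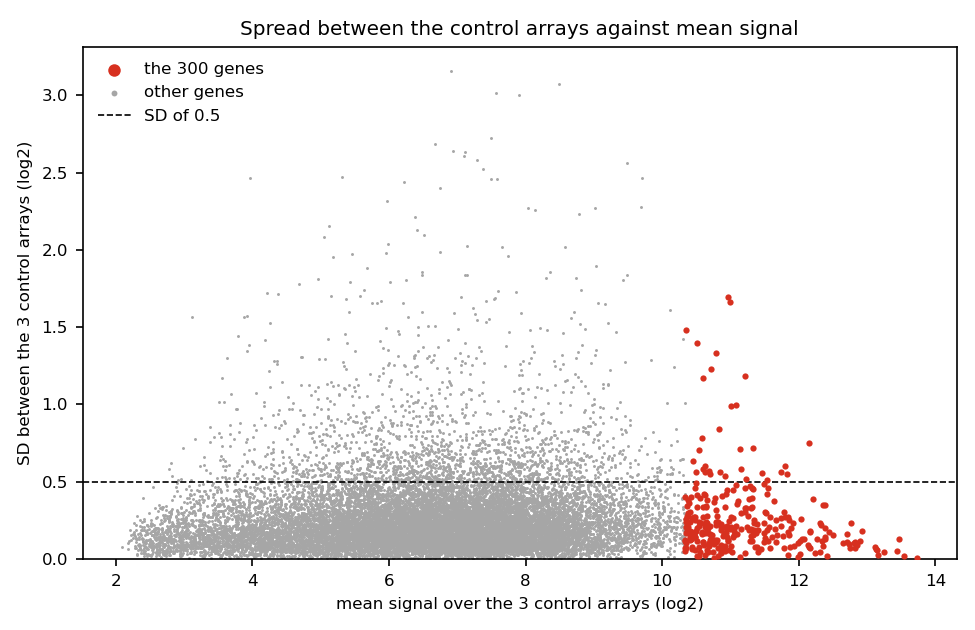
SD between the 3 control arrays (y axis, log2) against the mean signal (x axis, log2), 1 point a gene, for the 300 genes (red) and the other 18960 genes (grey), with a dashed line at an SD of 0.5. Above the line lie 32 of the 300 genes and 1921 of the others.

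Most of the wide spread came with control 1. Among the 32 members with an SD over 0.5, control 1 was the array farthest from the gene's mean in 28, below it in 20 and above it in 8. Control 3 was farthest in 3, and control 2 in 1, crybgx. Among the 1921 other genes with an SD over 0.5, control 1 was farthest in 66.3%. Without control 1 the median SD of the same 300 genes was 0.0988, and 7 genes had an SD over 0.5, of which 4 were among the 32. Without control 2 it was 0.221, with 47 genes over 0.5, and without control 3 it was 0.185, with 40. Each of these SDs rests on 2 arrays. Without control 1, 2 and 3, the shares over 0.5 were 2.3%, 15.7% and 13.3% of the 300. Over all genes they were 4.9%, 15.8% and 10.8%. The median SD of the other genes also changed, to 0.129, 0.209 and 0.174. For msmo1, controls 2 and 3 both read 11.21, and for opn1sw1 they read 11.28 and 11.27, so that the SD of these genes came from control 1.

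**Figure D4:**
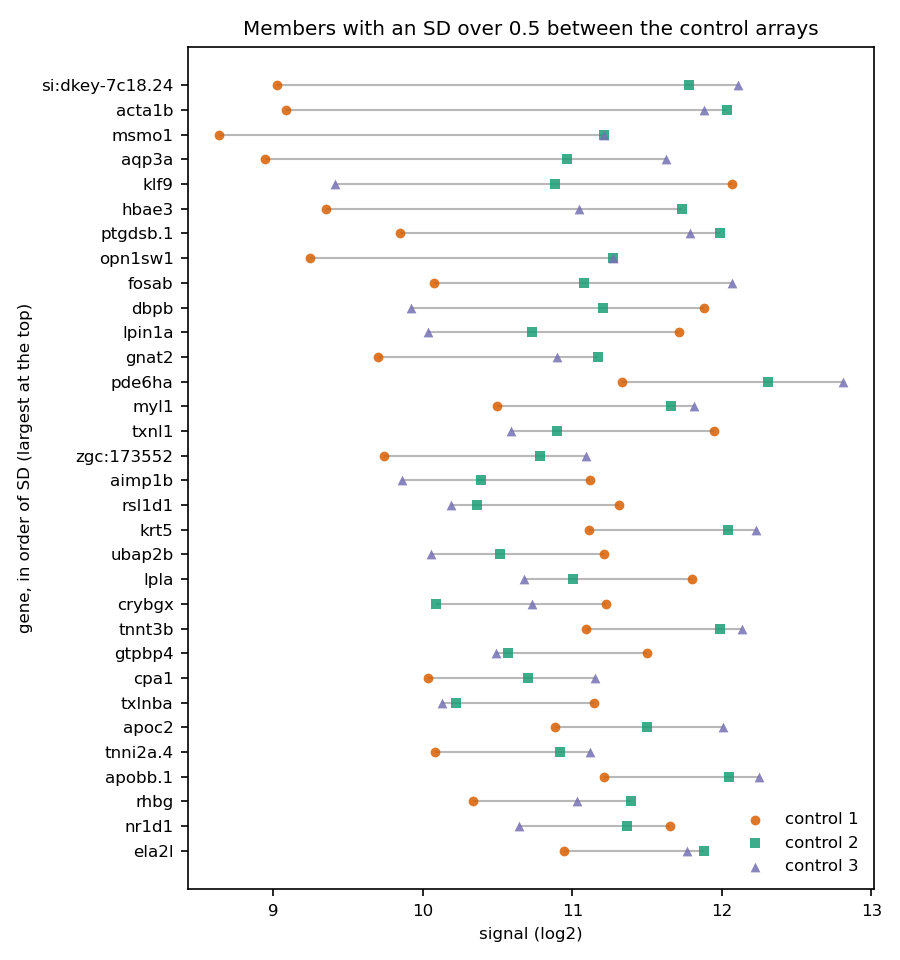
Log2 signal (x axis) on each of the 3 control arrays (coloured symbols) for the 32 members with an SD over 0.5, the largest SD at the top. Control 1 lies at the low end for most genes, and at the high end for the rest, among them klf9, dbpb, lpin1a, txnl1 and the ribosome assembly genes rsl1d1 and gtpbp4.

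Control 1 therefore differed from the other arrays in opposite directions for different groups of the list. Its median difference from the mean of controls 2 and 3 was 0.77 over the ribosome assembly genes and 0.61 over the 6 clock genes. Both groups were made after values were seen. The difference was 0.41 over the translation factors, 0.39 over the lens proteins and 0.25 over the ribosomal proteins. It was -0.31 over the muscle genes, -0.35 over the keratins and epidermal genes, -0.41 over the apolipoproteins and other liver proteins and -1.22 over phototransduction. The medians of the pancreatic enzymes and the intestinal genes lay near 0, at -0.02 and 0.02. The intestinal genes were split, with slc6a19a.2 at 0.68 and slc13a2 at 0.61, against plac8.1 at -0.40 and anpepb.1 at -0.50. The remaining members, plb1 and cyp3a65, lay at 0.11 and -0.08. After quantile normalization of the 3 arrays the counts kept their direction, with control 1 highest for 31 of 41 ribosomal proteins, 15 of 18 translation factors and 6 of 7 assembly genes, and lowest for 21 of 26 muscle genes and 4 of 5 phototransduction genes. The pancreatic enzymes then tilted, with control 1 lowest for 11 of 15. The shares of all genes were not counted after this normalization. Whether the tilt is particular to the pancreatic enzymes is therefore not known.

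**Figure D5:**
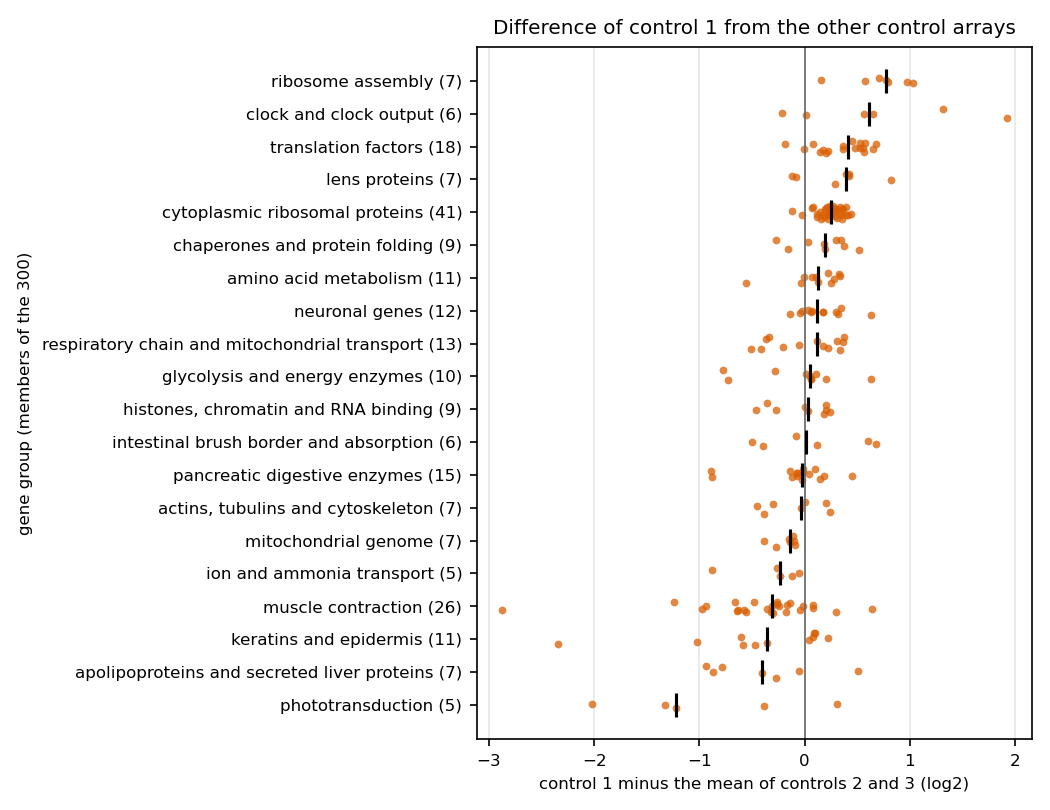
Control 1 minus the mean of controls 2 and 3 (x axis, log2) for each member, 1 point a gene, in the groups with 5 members or more (number in brackets), with a black bar at the median. Ribosome assembly, clock, translation and lens genes lie mostly right of 0, and muscle, epidermal, liver and phototransduction genes mostly left of it.

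Some features of the list come with how it was made. For 254 of the 300 genes a single transcript cluster carried the symbol, and 46 had more than 1. In 34 of these the clusters' means differed by more than 2 and in 12 by more than 4, with zgc:173552 the widest, whose 6 clusters ran between 10.54 and 2.59. Clusters with several symbols stood outside the ranking, and 31 of them had a signal at or above place 300. They include the elongation factor pair eef1a1l1 and eef1a1l2, with 13.25, 13.13 and 13.20 in controls 1, 2 and 3, the mitochondrial genes ND4 and ND4L, with 13.03, 13.07 and 13.17, and the cluster of tfa and rps27.1, with 10.24, 12.07 and 12.12. A further 692 clusters at or above that signal carried no symbol and are not named here, the highest at 13.67. Besides the mitochondrial genes, 8 pairs of members are neighbours in RefSeq's gene order. They are prss59.1 and prss59.2, cpa1 and cpa5, ela2l and ela2, crybb1 and cryba4, krt5 and krt8, cpe and msmo1, glud1b and sncgb, and rplp2 and rps26l. Neighbours did not always go together: msmo1 had an SD of 1.48, and cpe, with 10.39, 10.35 and 10.29, had an SD of 0.052.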

How the data were processed

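RNA of whole larvae was measured on 6 Affymetrix zebrafish gene arrays, and the 3 control arrays were used. The values that the authors deposited are log2 signals of 75212 transcript clusters on each array. The labels name MAS5 (version not given) without its role, and background correction and normalization were not given in the sources used here. Flags for background or saturation were not analysed here, and 3 arrays limit how well an SD is known. The platform's table gave a single symbol for 20806 clusters, several for 855 and none for 53551. The cluster with the highest mean stood for a gene, and means and SDs (n = 3) were computed in Python 3.11.15 with pandas 2.3.3 and numpy 2.4.6. All 300 Entrez identifiers matched RefSeq with the same symbol. Genes were grouped by symbol, and the groups for the mitochondrial genome, ribosome assembly, ion and ammonia transport, amino acid metabolism and the clock were made after values were seen. The members and lists were chosen with earlier results of these data known. Named genes were the 20 highest, 5 inside and 5 outside place 300, the 10 largest and 10 smallest SDs, the 5 highest and the widest of each group, and genes of actin, gapdh, myelin and il7r. Other genes were named after their values were seen. No test was run, since the signals chose the members. The ranking was tried on simulated arrays. Alternatives were quantile normalization, median centring, the median or the linear mean over arrays, the mean over all clusters of a gene, clusters with several symbols kept, and each array left out.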

Additional observations from a re-analysis of the deposited data

How the results depend on the processing

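Between 264 and 300 of the 300 genes were shared with the list made under each of the 9 alternatives, and 269, 288 and 283 were shared without control 1, 2 and 3. Median centring shifts each array by a constant and keeps every gene's mean, so it could not change the list or the group counts. Under quantile normalization, the median over arrays and the linear mean, no count of a group moved by more than 1.5 times. With median centring included, the median SD of the 300 lay between 0.1727 and 0.1992. The signal at place 300 was 10.24 with the mean over all clusters of a gene and 10.43 with clusters of several symbols kept, against 10.34. With each array left out and the list made anew, the median SD of the 300 ran between 0.1004 and 0.2155 and that of the other genes between 0.1284 and 0.2086, the lowest in both cases without control 1. The number of phototransduction genes ran between 3 and 6, with 3 without control 2 or control 3, that of collagens and matrix between 1 and 2, with 2 without control 1, and that of red blood cell genes between 0 and 1, with 0 without control 2. The other 22 of 25 groups kept their counts within 1.5 times under every alternative. No metronidazole array was used and no test was run, so a pairing of control and treated arrays by batch was not examined. Levels of different genes cannot be ordered by RNA amount, and the 3 arrays limit what an SD of a single gene can say.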
